A study of Mus musculus with 6 samples.

Results

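The 46 genes described here are the DEAD and DEAH box RNA helicases of mouse skeletal muscle. They were chosen by name from the 14619 genes of the deposited expression table: every symbol that starts with Ddx or Dhx and a digit, without Ddx5, Ddx17, Ddx39b and Ddx3y. There were 30 Ddx and 16 Dhx genes. The RNA came from the tibialis anterior, a fast shin muscle, with 3 control and 3 knockout mouse libraries. All carried 1 copy of HSA-Cre (HSA-Cre Tg/+), a Cre recombinase under the human skeletal actin promoter, which is active in skeletal muscle fibres and not in the vessels, nerves, connective tissue and immune cells of the same muscle. The control genotype was HSA-Cre Tg/+; Acin1 +/+ (replicates 1, 2 and 3), and the knockout genotype HSA-Cre Tg/+; Acin1 F/F (replicates 5, 7 and 8), in which Cre deletes floxed Acin1. Acinus, the product of Acin1, is an RNA-binding protein of splicing complexes in the nucleus, and the comparison asks how its loss from fibres alters gene expression and splicing. Age, sex and strain are not given in the sources used here, and neither do they tie libraries to animals, so that all p-values refer to library spread, which may be technical.

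DEAD and DEAH box proteins use ATP to open short RNA duplexes or to strip proteins from RNA. Both names come from the amino acids of a conserved box in the ATP-binding core. Different members act in spliceosome assembly, in the nucleolus where ribosomes are built, in mitochondria, in messenger RNA export, translation and decay, and in the recognition of viral RNA. A few members are known best as partners of other machines, such as Ddx1 in the tRNA ligase complex, or have little-known roles.

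The codons of the box show how the members that the results turn on differ in that core. The stretches below are coding sequence of GENCODE M21 transcripts, 5′ to 3′, with the codons of the box in capitals. They were found as the first family box, or failing that a box with the same first, second and last letters, downstream of the codons of the ATP-binding loop. Ddx46 (chromosome 13), a splicing helicase, carries the box that gave the DEAD family its name. Dhx57 (chromosome 17), Ddx58 (chromosome 4) and Dhx58 (chromosome 11), the latter 2 sensors of viral RNA, carry variants of the DEAH box. The codons read DEVH in Dhx57, and DECH in Ddx58 and Dhx58.
Ddx46: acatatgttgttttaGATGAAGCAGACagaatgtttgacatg
Dhx57: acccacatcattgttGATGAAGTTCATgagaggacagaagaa
Ddx58: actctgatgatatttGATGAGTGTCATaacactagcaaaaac
Dhx58: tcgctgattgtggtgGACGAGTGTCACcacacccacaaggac

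Of the 46 helicases 40 had an entry in the RefSeq promoter table for GRCm38.p6, with 250 bases before to 50 bases after the start of the gene. The promoters of the 3 helicases that passed the test below are printed 5′ to 3′ on the strand of the gene. The interferon response element, 2 copies of GAAA with any 2 bases between them, was searched on both strands, and its letters are in capitals. It stood in 3.44% of all 32851 promoters, and in 4 of the 48 promoter entries of the helicases, which belong to Ddx49, Ddx58 and Ddx60. In Ddx58 it began 2 bases after the start and read on the opposite strand. These letters were not in the windows of Ddx46 and Dhx57, and a match is a description of the sequence only.
Ddx46, chr13:55634749-55635048, plus strand: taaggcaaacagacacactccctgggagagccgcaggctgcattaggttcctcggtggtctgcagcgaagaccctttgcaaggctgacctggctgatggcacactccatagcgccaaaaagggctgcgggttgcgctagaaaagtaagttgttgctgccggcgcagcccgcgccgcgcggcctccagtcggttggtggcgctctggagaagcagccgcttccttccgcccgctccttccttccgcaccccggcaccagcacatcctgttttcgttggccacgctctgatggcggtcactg
Dhx57, chr17:80290427-80290726, minus strand: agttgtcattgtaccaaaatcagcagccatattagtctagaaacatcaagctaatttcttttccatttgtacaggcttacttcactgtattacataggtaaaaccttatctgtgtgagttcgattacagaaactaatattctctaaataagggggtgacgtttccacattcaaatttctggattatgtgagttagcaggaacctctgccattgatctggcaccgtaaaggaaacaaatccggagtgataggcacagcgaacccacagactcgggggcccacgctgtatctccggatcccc
Ddx58, chr4:40239776-40240075, minus strand: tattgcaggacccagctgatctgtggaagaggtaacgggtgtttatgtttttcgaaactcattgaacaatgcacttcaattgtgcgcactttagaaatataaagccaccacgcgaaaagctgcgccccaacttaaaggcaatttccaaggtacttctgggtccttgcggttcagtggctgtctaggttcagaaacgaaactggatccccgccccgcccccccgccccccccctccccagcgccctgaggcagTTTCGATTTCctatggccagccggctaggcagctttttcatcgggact

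The libraries held 21084522 to 29301125 reads in the listed genes, of which mitochondrial genes took 21.4% to 24.1%. Acin1 was lower in every knockout library, at 1513, 1559 and 1413 scaled reads in control against 1196, 1196 and 1195 in knockout (log2 change -0.32, SE 0.07, limma adjusted p = 0.0266). Scaled reads are read counts divided by 1 factor per library that evens out depth. The helicases took 0.104% ± 0.0035 of the reads in control and 0.106% ± 0.0028 in knockout (SD, n = 3 each), and the ranges overlapped. Their levels were between 8 reads, the lowest count of a helicase in a library, and a mean of 3785 scaled reads. All 8 fibre markers, such as Acta1 and Ckm, were measured in each library and 0 of 8 passed the test. Of the 6 germ line markers, 5, Ddx4 among them, were not among the listed genes.

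Across the helicases 3 were lower in the knockout, 0 were higher and 43 did not pass limma's test at an adjusted p under 0.05. Over all genes 5.51% were called lower and 5.74% higher. The 3 were Ddx46, Dhx57 and Ddx58. The share of helicases called lower was thus near that of all genes. At an unadjusted p under 0.05 there were 5 helicases with higher and 4 with lower values, beside 29.3% of all genes in both directions. The authors' deposited table, in which 12.2% of genes had an adjusted p under 0.05 and 5.93% were lower with it, gave the same 3 helicases, with adjusted p of 0.00201 for Ddx46, 0.0098 for Dhx57 and 0.0281 for Ddx58. In whole muscle, fewer cells of a type and less RNA per cell cannot be told apart. For scale, 2 of the 4 Ddx genes left out by the choice of members were called lower, Ddx5 (log2 change -0.90, limma adjusted p = 0.000579) and Ddx39b (-0.56, 0.00613).

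Most log2 changes of the helicases were small, with Dhx58 at -0.88 and Ddx60 at 0.43 as the farthest from 0 among those not called. The median log2 change over the 46 was 0.06, against -0.01 over all genes, and the median absolute change was 0.12 against 0.22. Of the 46, 40 had an absolute log2 change under 0.25 (87.0%), against 54.9% of all genes. For 39 of 46 (84.8%) the 95% limma interval of the change lay within 0.5 of 0 on the log2 scale, against 39.1% of all genes and 41.5% of the 12665 genes with scaled reads in the range of the helicases. The median coefficient of variation between libraries was 5.80% in control and 5.25% in knockout for the helicases, and 10.3% and 12.5% for all genes. These values are descriptions, without a test of the helicases against other genes.

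**Figure D1:**
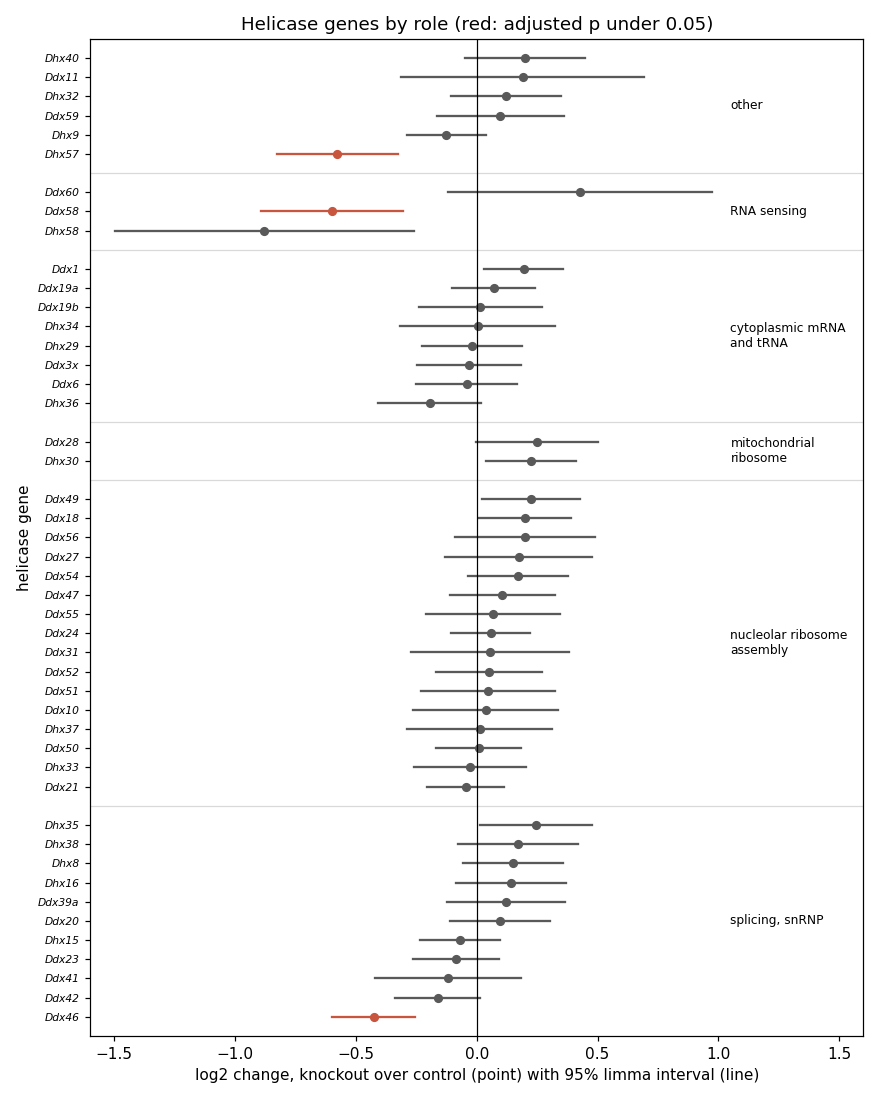
Log2 change of knockout over control (horizontal axis) for the 46 helicases, grouped by role. Points are limma estimates, lines 95% limma intervals, and red marks an adjusted p under 0.05. Ddx46, Dhx57 and Ddx58 stand left of 0 in red, Dhx58 lies farther left with a wide interval, and all 16 nucleolar genes lie between -0.05 and 0.23.

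The splicing helicases comprised 11 genes: 1 fell, 0 rose and the other 10 were not called. Ddx46 (ENSMUSG00000021500), the counterpart of yeast Prp5, remodels the U2 particle when it takes hold of the branch site of an intron. Its scaled reads were 1060, 964 and 987 in control and 747, 768 and 720 in knockout. All 3 knockout libraries were below all 3 control libraries. This gave a log2 change of -0.43 (SE 0.08, limma adjusted p = 0.0134). It lost the call without control replicate 1 (adjusted p = 0.0531) or control replicate 3 (0.0518), at changes of -0.39 and -0.44.

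The other splicing helicases had log2 changes between -0.16 and 0.25. Ddx42, which joins the U2 particle with the SF3B proteins, had 786, 743 and 710 scaled reads in control and 655, 684 and 662 in knockout (log2 change -0.16, SE 0.08, limma adjusted p = 0.206). Its groups did not overlap, which was so for 35.4% of all genes. Dhx35, found in spliceosomes at the catalytic stage, had 247, 252 and 223 in control and 292, 269 and 297 in knockout (0.25, SE 0.10, adjusted p = 0.149). The helicases that drive the later steps, known from their yeast counterparts, had log2 changes of -0.09 for Ddx23 (Prp28), 0.14 for Dhx16 (Prp2), 0.17 for Dhx38 (Prp16), 0.15 for Dhx8 (Prp22) and -0.07 for Dhx15 (Prp43). Ddx46 was thus the 1 past the threshold among the 11 genes placed in this role. Ddx5 (log2 change -0.90) and Ddx39b (-0.56), both called lower, were left out by the choice of members and are not counted here. Of the G-patch proteins, which bind and switch on DEAH helicases such as Dhx15, 0 of 19 passed in either direction, with a median log2 change of 0.15, and 4 had an unadjusted p under 0.05. Of the SMN complex partners of Ddx20 (Gemin3), which loads rings of Sm proteins on spliceosomal RNA, 0 of 8 passed (2 at an unadjusted p under 0.05), and Ddx20 itself had a log2 change of 0.10 (adjusted p = 0.523).

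The nucleolar group, helicases of ribosome assembly, held 16 genes, of which 0 passed and 14 had a positive log2 change. A positive change was found for 31 of all 46 helicases and for 7165 of all 14619 genes. The log2 changes of the nucleolar group ran from -0.05 to 0.23. Their median was 0.06, as over all 46 helicases, and the 95% limma interval of each of the 16 lay within 0.5 of 0. Ddx49, the counterpart of yeast Dbp8 of the small subunit, had 261, 271 and 266 scaled reads in control and 318, 312 and 306 in knockout. Its knockout libraries were all above its control libraries (log2 change 0.23, SE 0.09, limma adjusted p = 0.132). In the GENCODE M21 annotation 29.9% of its exon bases overlap Homer3 on the opposite strand, and the sources used here do not tell if strand was used in counting. Ddx18, the counterpart of yeast Has1, had 337, 337 and 343 in control and 382, 402 and 386 in knockout (0.20, SE 0.08, adjusted p = 0.154). These were the 2 nucleolar helicases at an unadjusted p under 0.05. Ddx21 and its close relative Ddx50 had log2 changes of -0.05 and 0.01. Of 30 other ribosome assembly factors 1 rose, Fbl, the RNA methyltransferase fibrillarin (0.58, adjusted p = 0.0223), and 1 fell, Nolc1, a nucleolar phosphoprotein (-0.42, adjusted p = 0.0297). At an unadjusted p under 0.05 there were 13 of these factors, 10 with higher and 3 with lower values, beside 29.3% of all genes. A positive log2 change was found for 22 of 30.

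Mitochondrial ribosome assembly was represented by Dhx30 and Ddx28. Dhx30 had 578, 533 and 544 scaled reads in control and 684, 630 and 624 in knockout (log2 change 0.23, SE 0.08, limma adjusted p = 0.109). Ddx28, which acts on the large subunit, had 229, 231 and 193 in control and 249, 265 and 264 in knockout (0.25, SE 0.11, adjusted p = 0.174). The groups did not overlap for either gene, which was so for 35.4% of all genes, and neither passed the test.

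Among 8 helicases of cytoplasmic messenger RNA, export and tRNA, 0 passed and 1 had an unadjusted p under 0.05. Ddx1, a subunit of the tRNA ligase complex, had 2330, 2485 and 2390 scaled reads in control and 2914, 2672 and 2659 in knockout, all above control (log2 change 0.19, SE 0.07, limma adjusted p = 0.114). In the gene list for the complex of Ddx1, 1 of 6 rose and 3 had an unadjusted p under 0.05. Over all genes 5.74% were called higher and 29.3% had an unadjusted p under 0.05. The 1 called was Zbtb8os (archease, which helps the ligase turn over), from 133 ± 2.6 to 189 ± 17.9 scaled reads (SD, n = 3 each, 0.50, adjusted p = 0.0332). The ligase Rtcb itself was at 746 ± 29.7 against 743 ± 5.1 scaled reads (adjusted p = 0.971).

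Dhx36, which unwinds G-quadruplexes, had 648, 725 and 705 scaled reads in control and 649, 621 and 547 in knockout, with overlapping groups (log2 change -0.19, SE 0.09, limma adjusted p = 0.206). Ddx6, a decapping and P-body helicase, had a log2 change of -0.04 (95% limma interval -0.25 to 0.17), and 0 of 22 Ddx6 and decapping partners passed (4 at an unadjusted p under 0.05). Ddx3x, which helps translation start on structured messenger RNA, had one of -0.03 (-0.25 to 0.18). The nuclear pore helicases Ddx19a and Ddx19b, which release exported messenger RNA and are near copies whose separate values are uncertain, had log2 changes of 0.07 and 0.01. Of 7 export partners 1 rose, the export receptor Nxf1, from 1055 ± 61.0 to 1313 ± 5.1 scaled reads (SD, n = 3 each, 0.32, adjusted p = 0.0303). An unadjusted p under 0.05 was found for 2 of the 7. Over all genes 5.74% were called higher and 29.3% had an unadjusted p under 0.05.

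**Figure D2:**
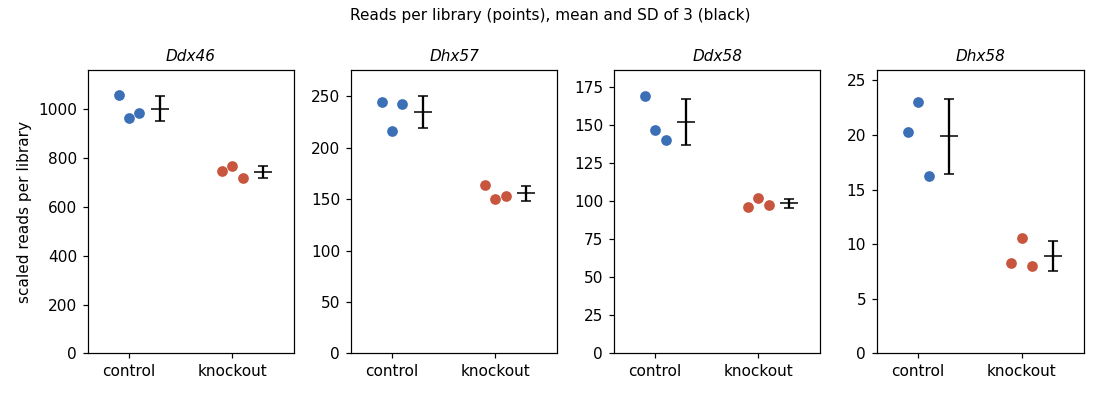
Scaled reads in each library (vertical axis, from 0) for Ddx46, Dhx57, Ddx58 and Dhx58 in control and knockout, with the mean and SD of 3 libraries in black. In all 4 genes the knockout libraries lie below the control libraries; Dhx58 has 8.0 to 23.0 scaled reads and did not pass the test.

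The 3 helicases of double-stranded RNA sensing and antiviral defence had the lowest median level per length of any role. Their median log2 change, -0.60, was the most negative of any role, but with 3 genes it is the value of Ddx58 itself. Dhx58 was at -0.88 and Ddx60 at 0.43. Ddx58 (ENSMUSG00000040296), also called RIG-I, binds viral RNA ends and signals through the mitochondrial adaptor Mavs to interferon genes. Its scaled reads were 169, 147 and 140 in control and 95.9, 102 and 97.6 in knockout. The highest knockout library was below the lowest control library. This gave a log2 change of -0.60 (SE 0.13, limma adjusted p = 0.0244). Without control replicate 1, 2 or 3 or knockout replicate 7 the gene was no longer called (adjusted p = 0.0887, 0.072, 0.0618 and 0.0613), at changes between -0.65 and -0.52.

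Dhx58 (LGP2), a relative of RIG-I without its signalling domains, had 20.3, 23.0 and 16.3 scaled reads in control and 8.3, 10.5 and 8.0 in knockout. The groups did not overlap, but the gene was not called (log2 change -0.88, SE 0.27, limma adjusted p = 0.0706). Without the mean-variance trend it was called (adjusted p = 0.0313). Part of its exons, 4.31%, overlaps its antisense gene Dhx58os. Ddx60, an interferon-induced helicase, had 24.9, 19.9 and 23.8 in control and 40.2, 32.5 and 24.8 in knockout, so that the groups overlapped (0.43, SE 0.24, adjusted p = 0.275). The third RIG-I-like sensor, Ifih1 (MDA5), does not carry a Ddx or Dhx symbol. Its scaled reads were 92.1, 74.3 and 93.8 in control and 34.0, 43.9 and 41.7 in knockout (log2 change -1.05, SE 0.18, adjusted p = 0.0122). It was the 1 of 20 RNA helicases with other names that passed, and 8 of the 20 had an unadjusted p under 0.05. Over all genes 5.51% were called lower and 29.3% had an unadjusted p under 0.05.

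Genes downstream of the sensors were listed too. Of 19 genes of sensor signalling and interferon response, 0 rose, 2 fell and 17 were not called, and 11 had an unadjusted p under 0.05. Over all genes 5.51% were called lower, and 29.3% had an unadjusted p under 0.05. All 19 had a negative log2 change, beside 7454 of all 14619 genes. The median of the 19 was -0.44, against -0.01 over all genes. Those called were Usp18, which removes Isg15 from proteins (33.5 ± 3.1 to 13.3 ± 1.6 scaled reads, SD of 3 libraries each, a change of -1.11 with limma adjusted p = 0.0209), and Ifi27 (-0.39, adjusted p = 0.0478). The authors' deposited adjusted p was 0.0333 for Usp18 and 0.05745 for Ifi27, so that Ifi27 was not called there. Ifit3, not called by limma (adjusted p = 0.0767), had 0.0363 there. The adaptor Mavs had a log2 change of -0.05 (adjusted p = 0.814) and Irf3, the factor that sensor signals activate, one of -0.08 (0.707). Of the 15 genes of the list with a promoter entry, 8 held the interferon response element, as Ifih1 did. Over all promoter entries the share was 3.44%, and the list was chosen for interferon response. The called genes Usp18 and Ifi27 were not among the 8, but genes of the list without a promoter entry were not searched. A match describes the sequence only.

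Markers of other cell types moved in the same libraries. For scale, 5.51% of all genes were called lower. Of 8 endothelial markers 5 fell (Pecam1, Tie1, Tek, Flt1 and Ptprb), with a summed level of 11740 to 12870 scaled reads in control and 8120 to 10370 in knockout. Of 8 smooth muscle and pericyte markers 4 fell (13870 to 14740 against 9536 to 11900), and of 8 Schwann cell markers 4 fell (1900 to 2594 against 1423 to 1560). Of 8 macrophage and leukocyte markers 0 passed, with sums of 749 to 1078 and 636 to 2159. Of 8 fibroblast markers 0 passed, with sums of 17630 to 43420 and 11280 to 29160. Of 6 satellite cell markers 0 passed, with sums of 1522 to 1748 and 913 to 1519. All markers of these lists were measured. Their part in the values of Ddx58, Dhx58, Ifih1 and the interferon genes, or of Ddx46 and Dhx57, was not tested.

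**Figure D3:**
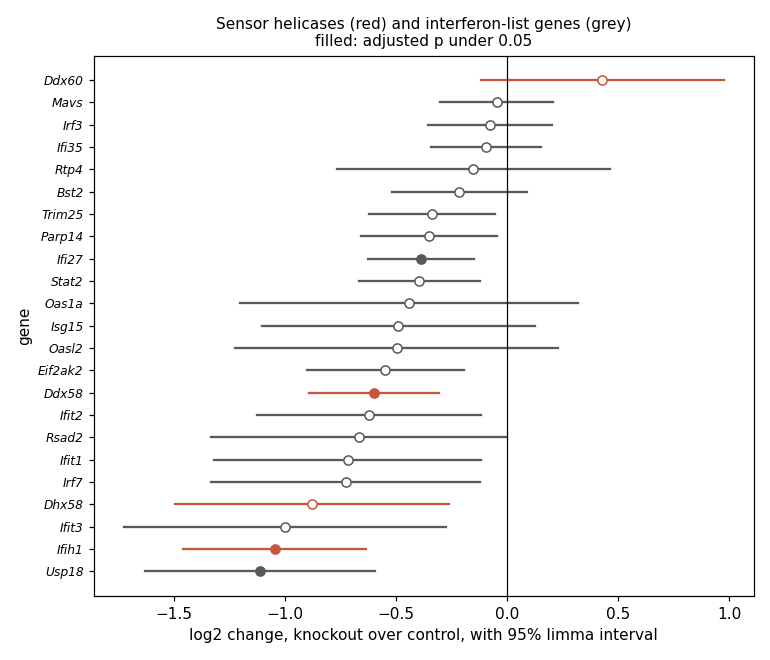
Log2 change of knockout over control with 95% limma intervals for the 3 sensing helicases and Ifih1 (red) and the 19 genes of sensor signalling and interferon response (grey); filled points have an adjusted p under 0.05. All 19 grey points lie left of 0, Ddx58 and Ifih1 are filled, and Ddx60 lies at 0.43 with an interval that spans 0.

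The remaining 6 helicases act on the genome or have little-known roles. Dhx57 (ENSMUSG00000035051), whose function is little known, had 245, 217 and 243 scaled reads in control and 164, 150 and 154 in knockout. All knockout libraries were below all control libraries. This gave a log2 change of -0.58 (SE 0.11, limma adjusted p = 0.0164). Without control replicate 1 or 3 or knockout replicate 7 it missed the threshold (adjusted p = 0.0665, 0.0657 and 0.0562), at a change of -0.55 each time. In the annotation 4.22% of its exon bases overlap the antisense gene AC132910.1, and 2.23% overlap Morn2.

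Dhx9, also called RNA helicase A, had 826, 814 and 818 scaled reads in control and 742, 735 and 775 in knockout, without overlap (log2 change -0.13, SE 0.07, limma adjusted p = 0.278). Dhx40, a little-known DEAH member, had 345, 350 and 286 in control and 350, 388 and 389 in knockout (0.20, SE 0.11, adjusted p = 0.263). Ddx11, a DNA helicase of sister chromatid cohesion, had 22.1, 27.2 and 22.5 in control and 23.7, 29.0 and 31.1 in knockout, with overlapping groups (0.19, SE 0.22, adjusted p = 0.610). Over all roles the groups did not overlap for 18 of 46 helicases (39.1%, against 35.4% of all genes), 11 with knockout above and 7 with knockout below.

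Levels per length differed far more between helicases than between groups. In reads per kilobase of exon, scaled to a common depth (RPKM), the highest were Ddx3x at 27.5, Ddx1 at 19.4 and Ddx6 at 13.8 (means of the 6 libraries), all cytoplasmic helicases. The lowest were Dhx58 at 0.169, Ddx11 at 0.150 and Ddx60 at 0.122, so that the highest stood 225-fold above the lowest. Ddx3x had 3625, 3981 and 3858 scaled reads in control and 4061, 3910 and 3273 in knockout, and Ddx6 had 3234, 2686 and 2898 against 3093, 2769 and 2696, each with overlapping groups. Ddx46 ranked 12, Dhx57 36 and Ddx58 43 of the 46 per length. Exon lengths are unions over transcripts of GENCODE M21, and Ddx3x has a near copy, Ddx3y, from which its reads may not be fully separated.

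**Figure D4:**
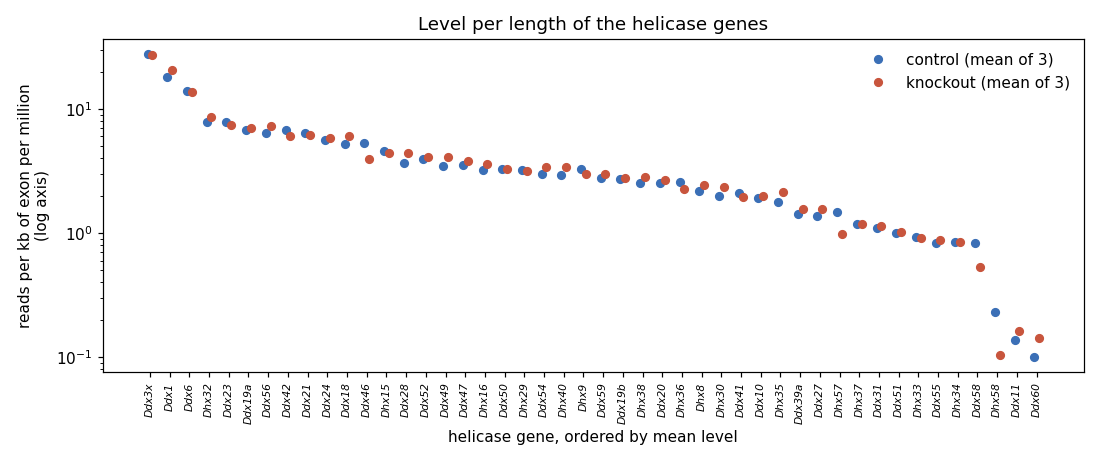
Mean level per length (RPKM, log axis) of the 46 helicases in control and knockout, ordered by the mean level of both groups. The order runs from Ddx3x at 27.5 to Ddx60 at 0.122; the pairs of points part most for Dhx58, Ddx58, Dhx57 and Ddx60.

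Splicing of the helicase genes themselves was read from the authors' rMATS tables, which count junction reads for and against each event. They list 83 events in 33 helicase genes, of which 41 in 20 genes had a mean of 20 or more reads per library. Single libraries could hold fewer. The 41 were 24 skipped exons, 11 retained introns, 5 alternative 3′ splice sites and 1 pair of mutually exclusive exons. At the authors' FDR under 0.05 there was 1 called event, a skipped exon of Ddx50, beside 3.44% of all events and 3.38% of all skipped exons with that many reads. At an unadjusted p under 0.05 there were 4 of 41, beside 10.5% of all events. The median absolute difference in inclusion was 2.0 percentage points and the largest 12.7 among these 41.

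Ddx50 encodes a nucleolar helicase closely related to Ddx21. The called exon has 135 bases at chr10:62457168-62457302 (GRCm39, minus strand), as the file gives it. One GENCODE M21 transcript held an exon of that length between introns of the same lengths. There it is exon 13 of 15, lies in the coding part from codon 583 of 734 and holds 45 whole codons, so that skipping it keeps the reading frame and adds no early stop. Its sequence in that transcript, 5′ to 3′, stands in capitals between 20 bases of each neighbouring exon in lower case.
Ddx50: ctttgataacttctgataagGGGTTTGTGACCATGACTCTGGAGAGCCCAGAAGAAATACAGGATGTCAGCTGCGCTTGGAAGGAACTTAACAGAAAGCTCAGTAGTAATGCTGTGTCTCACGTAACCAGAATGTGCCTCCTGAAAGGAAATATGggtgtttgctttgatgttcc

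Inclusion reads of this exon were 174, 181 and 122 in control and 164, 201 and 211 in knockout. Reads that skip it were 1, 0 and 0 in control and 6, 3 and 6 in knockout. Inclusion levels as deposited were 98.9%, 100% and 100% in control and 93.2%, 97.1% and 94.6% in knockout, so that the groups did not overlap. The difference was 4.7 percentage points at the authors' FDR of 0.020. Summed over libraries, 0.209% of the control reads skipped the exon (95% exact binomial interval 0.0053 to 1.16, counting error only) and 2.54% of the knockout reads (1.43 to 4.15).

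The call rests on few skipping reads and on the test. In the authors' deposited CASH table, from a second splicing caller, 1 of 501 control reads and 10 of 381 knockout reads skipped the exon, with an FDR of 0.999. The knockout column of that table equals the sum of 2 of the 3 rMATS libraries for many exons, so the tables share reads. With limma on log2 ratios of inclusion to skipping reads the change was -2.59 (adjusted p = 0.132). The gene level of Ddx50 was 866, 886 and 844 scaled reads in control and 929, 843 and 841 in knockout, with overlapping groups (log2 change 0.01, 95% limma interval -0.17 to 0.18).

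No other helicase event was called. Among the 41 events with enough reads, the largest difference was in another Ddx50 exon (chr10:62483313-62483422, GRCm39), included at 52.4%, 57.1% and 34.5% in control and 35.3%, 38.2% and 32.4% in knockout. The third control library lay within the knockout range, and the authors' FDR was 0.630. Beside the called exon, 3 of these 41 events had an unadjusted p under 0.05. An intron of Dhx30 was retained at 2.7% ± 2.0 in control and 7.8% ± 5.3 in knockout (SD, n = 3 each, FDR 0.133), an intron of Ddx3x at 8.7%, 11% and 13.3% in control and 4.0%, 4.9% and 11.6% in knockout (FDR 0.209), and an exon of Dhx35 was included at 96.7% ± 5.8 and 91.2% ± 2.9 (FDR 0.520). Ddx46 had 1 event with enough reads, an intron retained at 20%, 26.5% and 22.4% in control and 38.9%, 8.8% and 27.3% in knockout (FDR 1), and Ddx58 and Dhx57 had none. CASH listed 146 events in 40 helicase genes, of which 0 had an FDR under 0.05, beside 0.0465% of all events, and 0 an unadjusted p under 0.05.

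**Figure D5:**
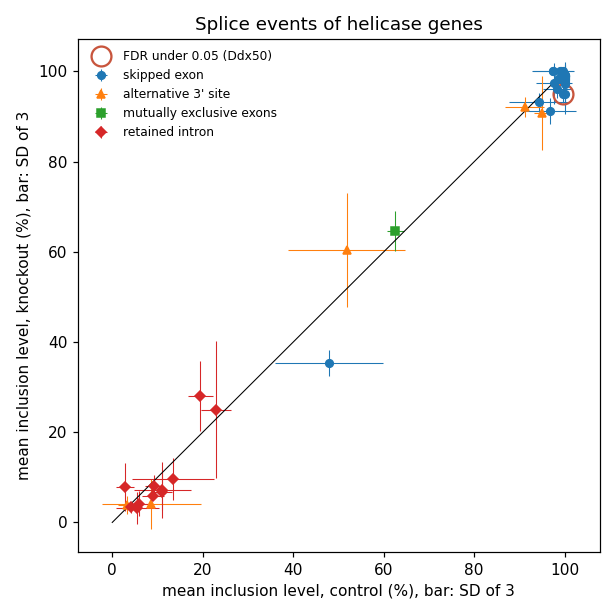
Mean inclusion level of the 41 helicase splice events in control (horizontal axis, %) and knockout (vertical axis, %), with bars for the SD of 3 libraries and the line of equal inclusion. Most skipped exons lie near 100% and most retained introns under 30%; the ringed Ddx50 exon lies 4.7 points below the line.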

How the data were processed

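Groups came from each sample's genotype label. The members, roles, lists and tests were chosen with earlier results of these data known. Per the submitters' processing notes the tools were FastQC 12.0, Trimmomatic 0.39, STAR 2.7.9a and RSEM 1.3.3 on GRCm39 (mm39); RNA selection is not given in the sources used here. The deposited gene table holds log2 values, log2 of reads divided by 1 factor per library plus 4. Once 4 was subtracted, 100% of values were whole multiples of a step per library (tolerance 0.001), which gave the reads. The file leaves out genes with few reads.

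All 14619 genes entered 1 limma fit of the log2 values (limma 3.58.1, R 4.3.3, mean-variance trend, two-sided, no covariates, Benjamini-Hochberg over all genes, adjusted p under 0.05), checked on simulated data. Fold changes are on the log2(value + 4) scale, which understates those of low genes. The file holds log values, so limma was used; the planned count models were not run, although the recovered reads would have allowed them. Replicates differed by more than counting error, with chi-square values of 10.3 to 42.2 for each degree of freedom, and all 6 entered as separate libraries.

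Per the file headers, the splicing tables hold junction counts per library, inclusion as a fraction, and the authors' p-values and FDR from rMATS, and pooled counts with p-values from CASH. The rMATS sides are unnamed. Sample 1 was read as control because the CASH control exclusion counts equalled its sum of 3 libraries for 378 of 2009 exons, against 31 of 2203 for sample 2. The CASH knockout counts equalled 2 of the 3 libraries of sample 2 for 557 of 2203 exons. Members named with every library's values were those called, the 2 smallest p per role and the 3 highest and lowest levels per length; events were those called with at least 20 reads per library, and others were chosen after their values were seen. A gene of the interferon list is not reported here.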

Additional observations from a re-analysis of the deposited data

How the results depend on the processing

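Leaving out each library in turn gave between 0 and 3 helicases called lower: 0 when control replicate 1 or 3 was dropped, 2 when control replicate 2 was, 1 when knockout replicate 7 was, and 3 when knockout replicate 5 or 8 was. Calls over all genes also fell from 1645 with all libraries, by amounts that differed with the library left out. There were 477, 488 and 511 without control replicate 1, 2 or 3. Without knockout replicate 5, 7 or 8 there were 1520, 698 and 1262. No helicase was called higher in any of these fits. Ddx46, Dhx57 and Ddx58 were called under each other test, added constant, scaling and filter that was run. Acin1 lost its call without the mean-variance trend (log2 change -0.32, adjusted p = 0.082); it also lost it without control replicate 1, 2 or 3 (0.0831, 0.0973 and 0.0587) or knockout replicate 7 (0.082), and leaving out a library gave changes between -0.36 and -0.29. Changes of single helicases were followed for those called, the 2 smallest p per role and the 3 highest and lowest levels per length. The other members were not followed one by one. In the set followed, the sign turned for 2 uncalled helicases. Ddx3x ran from -0.094 to 0.061 (the latter without knockout replicate 8). Ddx6 ran from -0.104 to 0.030 (the latter without control replicate 1). The cause of these turns was not tested. Other uncalled changes that moved by over 1.5 times were those of Dhx40 (0.11) and Ddx28 (0.17) without control replicate 3, Ddx60 (0.28) and Ddx11 (0.29) without knockout replicate 5, and Dhx36 (-0.12) and Ddx11 (0.12) without knockout replicate 8. The called Ddx50 exon became 0 called events at an FDR under 0.01, at a difference of at least 5 points, and with limma on ratios, also when each library was left out. The planned edgeR and DESeq2 fits were not run. No paired analysis was possible because control replicates 1, 2 and 3 and knockout replicates 5, 7 and 8 share no number. Depth limits Dhx58, Ddx60 and Ddx11, and skipping reads limit the splice events.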
